A study of Mus musculus and Homo sapiens with 14 samples.

Results

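The 41 genes described here form a list of targets of the transcription factor ATF4, serine synthesis genes and tRNA charging genes. The list holds 6 stress regulators, 3 enzymes of asparagine and proline synthesis and 9 enzymes of serine and one-carbon metabolism. It also holds 5 amino acid transporters and 18 cytosolic aminoacyl-tRNA synthetases. Membership does not show that a gene is an ATF4 target. The list was taken as symbols, drawn up with earlier results of these data known. All 41 had a row among the 20682 genes of each mouse table, and 40 had one among the 19166 genes of the human table, where VARS was not used. Their messenger RNA was measured by polyA-selected RNA sequencing of 14 acute myeloid leukemia libraries in 7 groups of 2. RN2c is a mouse leukemia line driven by MLL-AF9 and mutant Nras that carries Cas9. It received guides against Sik3 (e1 and e3), against Mef2c or against the Rosa26 locus as a cutting control. RNA was taken on day 2 after infection. The sgMef2c libraries are titled 1 and 2, as the sgRosa26 libraries are, and the titles do not say whether these are separate guides. RN2, the same leukemia, was given 350 nM YKL-05-099, a small molecule that blocks the SIK family (salt-inducible kinases), or 0.1% DMSO as vehicle, and was harvested 2 hours later. MOLM-13, a human MLL-AF9 line that here carries an empty vector, a word that the titles of the RN2 libraries also hold, was given 250 nM or 0.1% DMSO for the same 2 hours. Cas9 and MLL-AF9 are shared by all RN2c groups, and each line stands for 1 leukemia.

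ATF4 is made in larger amounts when kinases that sense missing amino acids, uncharged tRNA or endoplasmic reticulum stress phosphorylate the initiation factor eIF2, because upstream reading frames in the Atf4 message then release its coding frame. The protein is therefore set largely by translation, and the Atf4 message is only a partial readout of it. With C/EBP-family partners ATF4 binds composite elements near genes that make, import and charge amino acids, and it also induces CHOP and other stress regulators. Leukemia cells draw on the same genes, since serine feeds the one-carbon units used for purines and thymidylate and MYC induces several of them as well.

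Library totals, recovered from the deposited values as whole reads, ran from 13961461 to 14943682 in RN2, from 16859820 to 22609627 in MOLM-13 and from 19065348 to 24275290 in RN2c. All values below are DESeq2-normalized reads unless another scale is named. The labels do not say whether cultures were separate, so p-values reflect library-to-library spread only, and that spread may be technical. For sgSik3 it includes the difference between guides, and for sgMef2c it may. The same sgRosa26 libraries serve both knockout comparisons, so a high or low control value acts on both. Sik3 reads stood at 1939 and 1878 in the sgRosa26 libraries and at 1219 and 1169 in the sgSik3 libraries. Mef2c reads stood at 8395 and 8369 in the controls and at 3892 and 4021 in the sgMef2c libraries. The myeloid marker list of 8 genes was present in all 14 libraries, although the myeloid integrin ITGAM was low in MOLM-13, at 153.0 to 229.3. The hemoglobin genes Hba-a1 and Hba-a2 (HBA1 and HBA2 in MOLM-13) were at 0 everywhere, and the summed lymphoid markers stayed between 3.15 and 11.5 in the mouse lines and between 57.3 and 76.1 in MOLM-13.

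The ATF4-type composite element has the core TGATGNAA, which was searched on both strands from 250 bases before to 50 bases after each start in the RefSeq promoters of mouse build GRCm38.p6. It was present in 10 of the 30 members with a promoter in that table, 33.3%, and in 1219 of 27025 genes, 4.51%. The stretches below carry matches that lie before the start in 6 members, read along the gene and ending at its start where that is near, with the match in capitals. They show that the same core occurs in genes that fell, rose or did not pass the test after the knockouts.
Chac1, chr2:119351033-119351072, plus strand: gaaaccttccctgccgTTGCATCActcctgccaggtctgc
Slc7a11, distal match, chr3:50443656-50443695, minus strand: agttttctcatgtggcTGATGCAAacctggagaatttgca
Slc7a11, proximal match, chr3:50443637-50443676, minus strand: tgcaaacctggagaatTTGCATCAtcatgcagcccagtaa
Asns, chr6:7693210-7693248, minus strand: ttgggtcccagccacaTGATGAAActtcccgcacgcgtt
Pycr1, chr11:120643828-120643867, minus strand: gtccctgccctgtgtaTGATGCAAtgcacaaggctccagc
Gars, chr6:55037955-55037994, plus strand: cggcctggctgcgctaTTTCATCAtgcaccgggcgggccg
Tars, chr15:11399659-11399689, minus strand: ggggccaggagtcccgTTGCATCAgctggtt

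Before the start alone, 7 of 30 members held the core, 23.3%, against 3.91% of all genes. By role it was found in 5 of 10 synthetases with a promoter, 2 of 3 asparagine and proline enzymes, 2 of 6 regulators and 1 of 3 transporters. None of the 8 serine and one-carbon enzymes with a promoter held it in this window. The matches of Trib3, Yars and Iars, and another one of Aars, lay within 15 bases after the start. Slc7a11 was the only member with 2 matches before the start, at 66 and 47 bases, on opposite strands. The MYC-type E-box CACGTG, searched in the same windows, was present in 4 of 30 members, 13.3%, and in 8.09% of all genes. Its holders were Aars, Iars, Tars and Aldh18a1. A match is a string of letters, not a shown binding site.

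**Figure D1:**
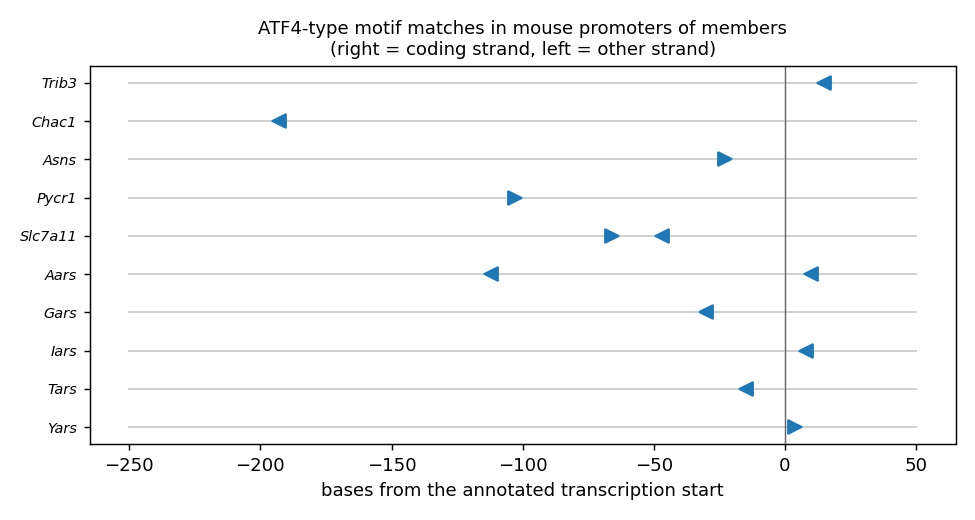
Position of each match to the ATF4-type core in the mouse promoters of the 10 members that hold one, in bases from the annotated transcription start, with the direction of the arrowhead giving the strand. Grey lines span the searched window, and Slc7a11 is the only gene with a pair of matches before the start.

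Cutting Sik3 was followed by lower messenger RNA for most of the metabolic and charging genes while no stress regulator passed the test. Of the 41 members, 33 fell and 2 rose at an adjusted p under 0.05, while 47.8% of the 10934 genes tested changed in either direction (23.9% fell and 23.9% rose). The median log2 fold change was -0.36 over the members and -0.00 over all genes tested. The falls were of modest size, from 13.1% to 66.2% below the control mean. In all 33 both sgSik3 libraries lay below both controls, which adds no support, since the test picked these members on the same libraries. The myeloid marker sum moved as well, from 51521 and 55682 in the controls to 71934 and 70511 with sgSik3, with 6 of its 8 genes above both controls, 1 below and 1 overlapping. The summed stromal, epithelial and endothelial markers went from 588.9 and 578.4 to 693.7 and 733.6, nearly all of it Pdgfrb. Gapdh, in the RNA-quality list, went from 1757 and 2018 to 1414 and 1412. Actb, of the same list, went the other way, from 68888 and 69552 to 73559 and 74153. The part of these shifts in the result was not tested. In bulk libraries fewer cells of a type and less RNA per cell cannot be told apart.

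**Figure D2:**
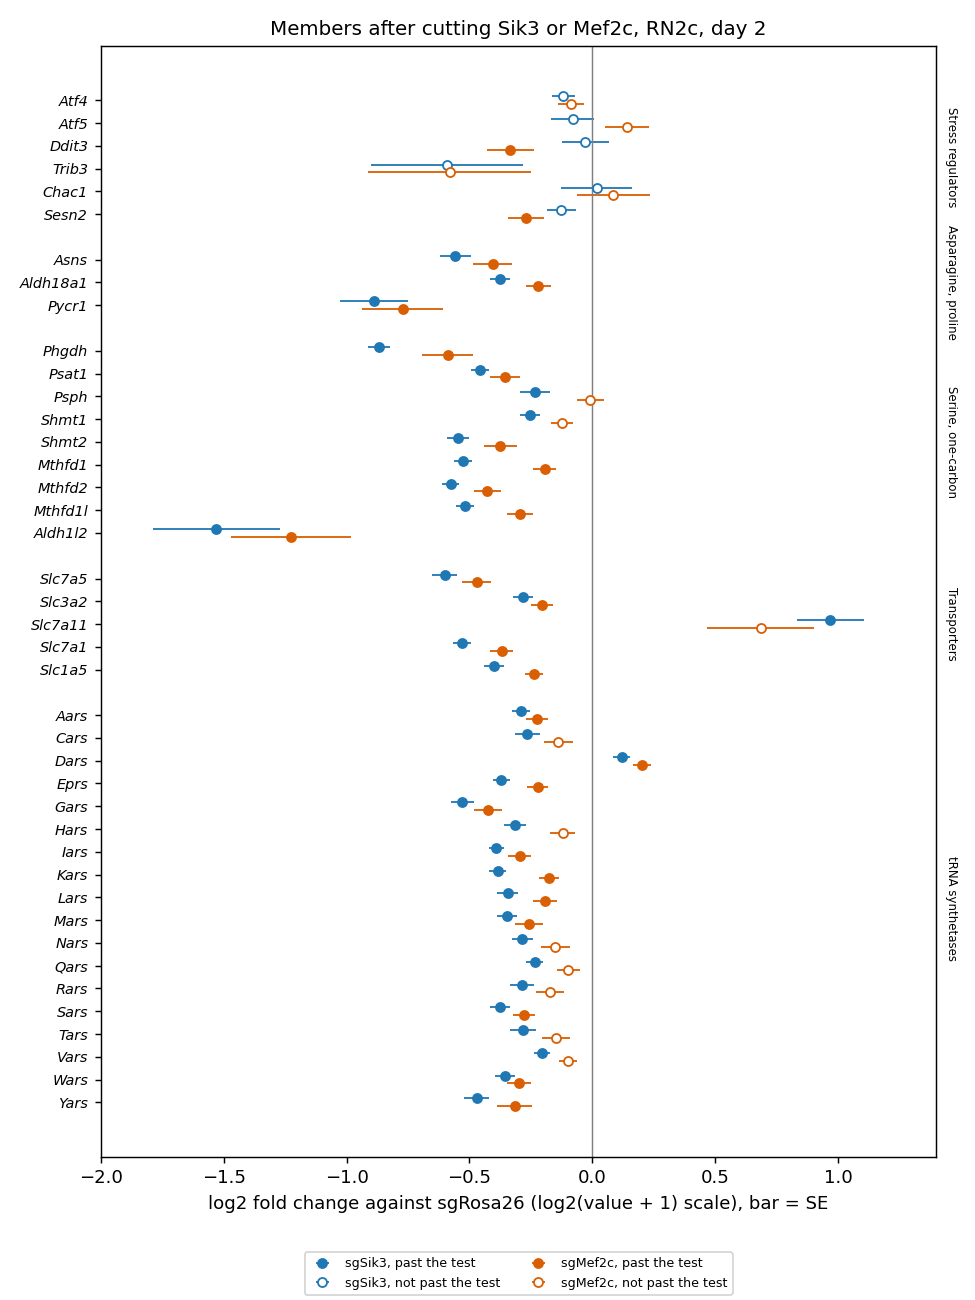
Log2 fold change against sgRosa26 with its standard error for each of the 41 genes, grouped by role, after sgSik3 (blue) and sgMef2c (orange), with filled points past the test. Most points lie left of 0, while Slc7a11 and Dars lie right of it, and among the stress regulators only Ddit3 and Sesn2 after sgMef2c are filled.

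None of the 6 stress regulators passed in sgSik3, although 5 had fold changes below 0. Atf4 itself read 8991 and 8112 in the controls and 7811 and 7930 with sgSik3. Both knockout libraries were thus the lower ones, but the fold change of -0.12 ± 0.05 (SE) did not pass (adjusted p = 0.065). Ddit3, which encodes the pro-apoptotic factor CHOP, read 246.5 and 241.3 in the controls and 247.1 and 231.4 with sgSik3, so the groups overlapped (-0.03 ± 0.10, adjusted p = 0.83). Chac1, which encodes an enzyme that degrades glutathione, read 182.5 and 138.6 against 160.5 and 161.6, with both knockout libraries between the controls (0.02 ± 0.15, adjusted p = 0.93). Trib3, a pseudokinase gene induced late in the response, read 112.9 and 52.9 in the controls and 47.7 and 54.6 with sgSik3. The first control was far above the other 3 libraries, and the fold change was -0.59 ± 0.31 (adjusted p = 0.15). Without sgRosa26 library 2 it became -1.13 and without library 1 it became -0.05. Leaving out sgRosa26 library 2 also brought Atf4 (-0.19), Atf5 (-0.21) and the stress sensor gene Sesn2 (-0.19) past the test. With all 4 libraries Atf5, an ATF4 relative, was at -0.08 and Sesn2 at -0.13.

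All 3 genes of asparagine and proline synthesis fell. Asns, the asparagine synthetase gene, read 3343 and 2898 in the controls and 2161 and 2070 with sgSik3, a fold change of -0.56 ± 0.06 (adjusted p = 0.00010). The groups stood well apart, by more than the gap between the controls. Pycr1, which encodes the enzyme of the last step to proline in mitochondria, read 381.9 and 283.2 against 170.3 and 184.5 (-0.89 ± 0.14, adjusted p = 0.00081). Its controls differed from each other by about as much as the lower control differed from the knockouts. Aldh18a1, which acts at the start of the same pathway, fell by 0.38 on the log2 scale.

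Each of the 9 serine and one-carbon genes fell. Phgdh, whose product commits glycolytic carbon to serine, read 4084 and 3782 in the controls and 2120 and 2181 with sgSik3 (-0.87 ± 0.04, adjusted p = 1.6e-06). The spread within either group was small beside this difference. The next enzymes of the pathway changed less, with Psat1, the transaminase, at -0.46. Psph, the phosphatase gene of the last step, read 722.4 and 729.0 against 634.4 and 599.3 (-0.23 ± 0.06, adjusted p = 0.012). It no longer passed without guide e3 (-0.19, adjusted p = 0.10) or with DESeq2 (adjusted p = 0.098), over a range of 0.0081 to 0.10 across the alternatives.

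The mitochondrial folate enzymes fell together with their cytosolic partners. Shmt2, which splits serine into glycine and a one-carbon unit in mitochondria, read 8085 and 7395 in the controls and 5226 and 5361 with sgSik3 (-0.55 ± 0.04, adjusted p = 1.6e-05). Mthfd2, the mitochondrial dehydrogenase gene often raised in tumours, read 4431 and 4315 against 2894 and 2971 (-0.58 ± 0.04, adjusted p = 3.7e-06). In both genes the libraries of a group lay close together and the groups far apart. Mthfd1l, which releases formate from mitochondria, read 2854 and 2791 against 1953 and 1988 (-0.52 ± 0.04). Mthfd1, which takes formate up into cytosolic folate, read 3525 and 3444 against 2450 and 2392 (-0.53 ± 0.04). Neither overlapped with the controls. Shmt1, the cytosolic counterpart of Shmt2, was at -0.25, which is smaller than for any of those 4. Aldh1l2, which oxidises mitochondrial formyltetrahydrofolate, had the largest fold of all members. It read 54.6 and 49.9 in the controls and only 14.6 and 20.7 with sgSik3 (-1.53 ± 0.26, adjusted p = 0.0012). It was also the member with the fewest reads, so its standard error was wide.

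Of the 5 transporters 4 fell and 1 rose. Slc7a5, which encodes the light chain of the large neutral amino acid exchanger, read 5493 and 4979 in the controls and 3356 and 3545 with sgSik3 (-0.60 ± 0.05, adjusted p = 1.85e-05). Its heavy chain partner gene Slc3a2 fell less, at -0.28. Slc7a1, for cationic amino acids, read 6545 and 6300 against 4366 and 4525 (-0.53 ± 0.04, adjusted p = 6.1e-06). The groups did not overlap in any of these genes. Slc1a5, for glutamine and other neutral amino acids, was at -0.40. Slc7a11, the cystine and glutamate exchanger gene that supplies cysteine for glutathione, went the other way, with 529.6 and 764.9 in the controls and 1277 and 1217 with sgSik3. The mean was 1.93 times the control mean (0.97 ± 0.14, adjusted p = 0.00041), and both knockout libraries exceeded the higher control.

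Among the 18 cytosolic synthetases 17 fell and 1 rose. Gars, the glycyl-tRNA synthetase gene, read 5292 and 5822 in the controls and 3919 and 3773 with sgSik3 (-0.53 ± 0.05, adjusted p = 2.8e-05), the largest fall of the family. Yars, for tyrosine, followed at -0.47, and the smallest falls were Vars, for valine, at -0.20 and Qars, for glutamine, at -0.23. The family median was -0.33. Kars, for lysine, read 4408 and 4455 against 3451 and 3337 (-0.38 ± 0.03), and Hars, for histidine, read 2679 and 2494 against 2102 and 2060 (-0.31 ± 0.04). Dars, for aspartate, was the exception, with 5322 and 5255 in the controls and 5887 and 5608 with sgSik3 (0.12 ± 0.04, adjusted p = 0.021). The rise was small, though the groups did not overlap. It did not pass without guide e1 (0.08, adjusted p = 0.19), with quantile normalization (0.099), without the mean-variance trend (0.12) or with DESeq2 (0.072), and ranged from 0.0049 to 0.19 over the alternatives. Apart from Psph and Dars, 33 of the 35 calls passed without any 1 library.

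**Figure D3:**
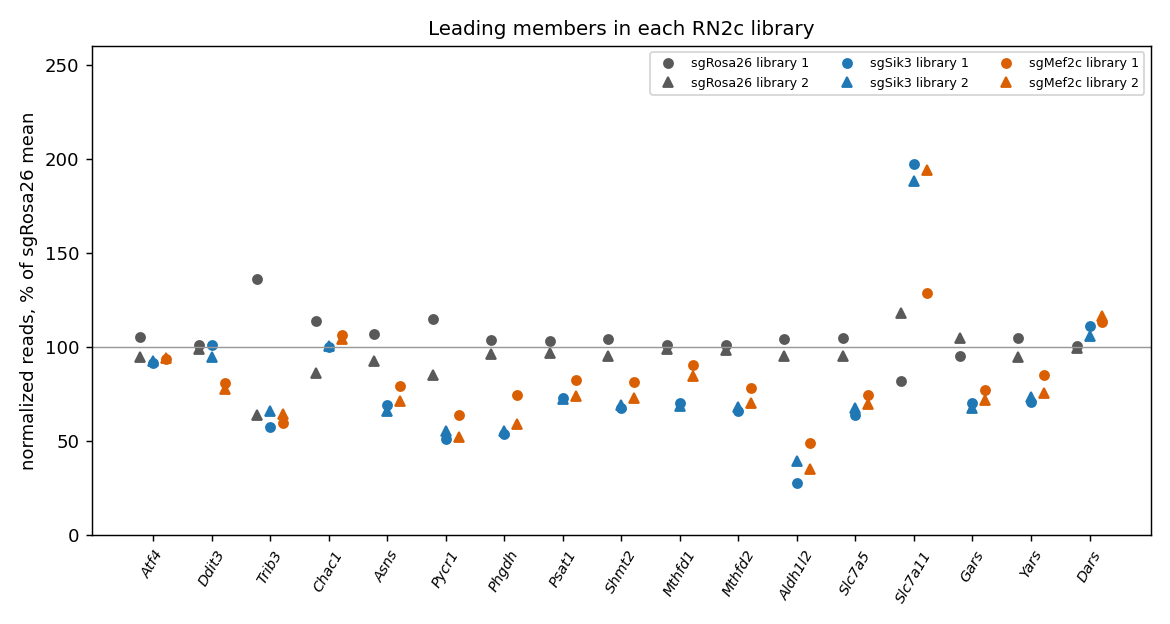
Normalized reads of 17 members in each RN2c library as a percent of the sgRosa26 mean of the same table, with grey for sgRosa26, blue for sgSik3 (library 1 is guide e1, library 2 is guide e3) and orange for sgMef2c (libraries 1 and 2). Trib3 and Slc7a11 show the widest gaps between the controls, and Slc7a11 and Dars are the genes plotted whose 4 knockout libraries all lie above both controls.

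Related genes outside the 41 were taken from lists of the surrounding pathways, and their counts stand beside the 23.9% lower and 23.9% higher of all genes tested. Of these calls 14 were lost without guide e1, 7 without guide e3, and 3 and 5 without sgRosa26 libraries 1 and 2. In the sensing arm upstream of ATF4, 7 of 14 genes fell and 2 rose with sgSik3. Those that fell were led by subunits of eIF2B, the exchange factor that phosphorylated eIF2 blocks, with Eif2b3 at -0.48 and Eif2b5 at -0.36. Impact, which encodes an inhibitor of the amino acid sensor GCN2, was at -0.30 (lost without guide e1, adjusted p = 0.059) and Eif2s1, the eIF2 alpha subunit gene, at -0.24. Eif2ak3, which encodes the endoplasmic reticulum stress kinase PERK, rose by 0.24. Among reported ATF4 targets outside the 41, 7 of 13 tested fell and 3 rose. Stc2 (-0.67), the translation repressor gene Eif4ebp1 (-0.34) and Cth (-1.22), which makes cysteine, fell, whereas Jdp2 (0.51), Cebpg (0.14), an ATF4 partner, and Cebpb (0.31) rose. The calls of Cebpb and Cebpg were lost without sgRosa26 library 2 or either guide, at 0.13 to 0.36 and adjusted p of 0.074 to 0.18 for Cebpb, and at adjusted p of 0.052 to 0.12 for Cebpg.

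The remaining lists moved downward where they passed. In glycine cleavage and folate handling, 5 of 10 fell and none rose, led by Gcsh (-0.66) and the mitochondrial folate carrier gene Slc25a32 (-0.47). The other cytosolic charging genes, which are the phenylalanine synthetase subunits and scaffold proteins of the multisynthetase complex, fell in 5 of 5 cases, with Eef1e1 at -0.56 and Farsb at -0.45. Of the 16 mitochondrial synthetases 8 fell and none rose, with Mars2 at -0.58 and Iars2 at -0.31. The charging genes of mitochondria, which are mostly not classed as ATF4 targets, were at a median of -0.23.

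Cutting Mef2c, which encodes a transcription factor of the MEF2 family, gave lower values for a similar set of enzymes, again with small steps. Of the 41 members 26 fell and 1 rose, against 31.4% called in either direction among 10956 genes tested (15.1% lower and 16.3% higher). The median was -0.23 over the members and 0.00 over all genes. Falls ranged from 11.4% to 57.8% below the control mean. In all 26 the groups were apart, which again adds no support, since the test picked them on the same libraries. The myeloid marker sum went from 54157 and 58379 to 76497 and 82721, and 5 of its 8 genes lay above both controls, 1 below and 2 overlapping. Within it the granule enzyme gene Mpo went from 7713 and 9269 to 23827 and 24864, whereas Csf1r went from 1214 and 1145 to 932.1 and 833.6. Gapdh went from 1847 and 2116 to 1676 and 1590, whereas Actb, at 72413 and 72921 against 72763 and 79782, overlapped. The part of these shifts in the result was not tested.

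Of the 6 regulators 2 fell with sgMef2c. Ddit3 read 259.1 and 253.0 in the controls and 206.8 and 199.2 with sgMef2c, so both sgMef2c libraries lay below both controls (-0.33 ± 0.10, adjusted p = 0.036). The call rests on all 4 libraries, because it was lost without any 1 of them, at -0.31 to -0.36 and adjusted p from 0.081 to 0.16, and it was also lost with DESeq2 (adjusted p = 0.25). Sesn2 read 958.1 and 877.2 against 727.0 and 794.8 (-0.27 ± 0.07, adjusted p = 0.029), with no overlap. It was lost without sgRosa26 library 1 (-0.21) or without sgMef2c library 1 (-0.21), without the mean-variance trend (adjusted p = 0.093) and with DESeq2 (0.076). Atf4 read 9451 and 8504 in the controls and 8435 and 8453 with sgMef2c, just under the lower control (-0.09 ± 0.05, adjusted p = 0.26). Chac1 read 191.8 and 145.3 against 179.1 and 175.5, within the range of the controls (0.09 ± 0.15). Trib3 read 118.7 and 55.4 against 51.9 and 56.0 (-0.58 ± 0.33). As in the other knockout table, which shares these controls, its first control stood alone. Atf5 was at 0.14 and did not pass.

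The enzymes of asparagine, proline and serine were mostly lower in both sgMef2c libraries. Asns read 3514 and 3038 in the controls and 2605 and 2335 with sgMef2c (-0.41 ± 0.08, adjusted p = 0.0096). Pycr1 read 401.5 and 296.9 against 223.8 and 182.0 (-0.77 ± 0.17, adjusted p = 0.013). In either gene the higher knockout library stayed below the lower control. Phgdh read 4293 and 3965 in the controls and 3089 and 2437 with sgMef2c (-0.59 ± 0.10, adjusted p = 0.0061). Library 2 of sgMef2c gave the lower value, and the gap between the sgMef2c libraries was larger than that between controls. Psat1 read 12362 and 11573 against 9872 and 8844 (-0.36 ± 0.06, adjusted p = 0.0055). Psph, by contrast, read 759.4 and 764.3 against 761.0 and 755.0 and showed no separation (-0.01 ± 0.06, adjusted p = 0.94).

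In the folate pathway 5 of the 6 remaining genes fell. Shmt2 read 8499 and 7753 in the controls and 6624 and 5925 with sgMef2c (-0.37 ± 0.07, adjusted p = 0.0062). Mthfd2 read 4658 and 4524 against 3597 and 3240 (-0.43 ± 0.06, adjusted p = 0.0020). Aldh1l2 again had the largest fold, with 57.4 and 52.3 against 26.9 and 19.4 (-1.23 ± 0.24, adjusted p = 0.010). Both sgMef2c libraries lay far below the controls. Mthfd1 read 3705 and 3611 against 3306 and 3095 (-0.19 ± 0.05), and Mthfd1l read 3000 and 2926 against 2524 and 2316 (-0.29 ± 0.05). Shmt1 at -0.12 did not pass.

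Transporters fell in 4 of 5 cases. Slc7a5 read 5774 and 5220 in the controls and 4098 and 3831 with sgMef2c (-0.47 ± 0.06, adjusted p = 0.0018). Slc7a1 read 6880 and 6605 against 5393 and 5051 (-0.37 ± 0.05, adjusted p = 0.0018). Both genes were separated from the controls by more than the spread within a group. Slc3a2 was at -0.20 and Slc1a5 at -0.24. Slc7a11 read 556.7 and 801.9 in the controls and 875.7 and 1319 with sgMef2c, higher in both sgMef2c libraries but with a wide gap between them (0.69 ± 0.22, adjusted p = 0.051). It passed without sgRosa26 library 2 (0.95) or without sgMef2c library 1 (0.98).

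Synthetases fell in 10 of 18 cases and rose in 1, with a median of -0.18. Gars again led, with 5563 and 6104 in the controls and 4492 and 4195 with sgMef2c (-0.42 ± 0.06, adjusted p = 0.0022). Yars was at -0.32, Wars, for tryptophan, at -0.30 and Iars, for isoleucine, at -0.29. Kars read 4634 and 4670 against 4229 and 4011 (-0.18 ± 0.04), a small step without overlap. Dars read 5595 and 5510 against 6296 and 6483 and was the member that rose (0.20 ± 0.04, adjusted p = 0.0078). Its groups were clearly apart. Hars, which did not pass, read 2816 and 2615 against 2533 and 2458 (-0.12 ± 0.05). Cars, Hars, Nars, Qars, Rars, Tars and Vars lay below both controls, at -0.10 to -0.17, and did not pass.

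The sgMef2c calls leaned on single libraries more than the sgSik3 calls. Of 27 calls 14 passed without any 1 library. Fewer members were called lower without sgRosa26 library 1 or without sgMef2c library 2, while the other 2 omissions left the count unchanged. The calls that were lost had adjusted p between 0.051 and 0.16. Across the members, sgRosa26 library 1 was above library 2 in 34 of 41, by a median of 0.09 on the log2 scale. Library 1 of sgMef2c was above its library 2 in 35 of 41, by a median of 0.07. Without the mean-variance trend in the variance model, 8 members were called lower.

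Among the pathway lists, to be read beside the 15.1% lower and 16.3% higher of all genes, sgMef2c gave 4 lower and 1 higher of 14 sensing genes, with Eif2b3 (-0.42) and Impact (-0.38) the lowest. Eif2ak4, which encodes GCN2 itself, rose by 0.23, a call lost without sgRosa26 library 2 or either sgMef2c library. Of the reported ATF4 targets outside the members 4 of 13 fell and 1 rose, with Atf3 at -1.07 and Jdp2 at 0.58. The Atf3 call was lost without either sgRosa26 library or sgMef2c library 2. Glycine and folate genes fell in 3 of 10 cases, led by Gcsh (-0.52). The other cytosolic charging genes fell in 4 of 5 cases, led by Eef1e1 (-0.43) and Farsb (-0.33). Of the mitochondrial synthetases 1 of 16 was called lower, Mars2, at -0.26, and that call was lost without any 1 of the 4 libraries (adjusted p of 0.070 to 0.19).

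The calls for the members in both knockouts can be set side by side, bearing in mind that the comparisons share their controls. In 24 members both knockouts were called lower and in 1 both higher, 9 were called lower with sgSik3 alone, 2 with sgMef2c alone, 1 was called higher with sgSik3 alone and 4 in neither. The share of all genes called in both knockouts was not counted, so these joint counts have no background beside them. A call in 1 comparison and not in the other does not show a difference between them.

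That difference was tested directly with edgeR, using whole reads recovered for the 6 libraries of RN2c. Of the 41 members 5 were higher with sgMef2c than with sgSik3 and none was lower, against 9.44% called in either direction among 10948 genes tested (3.7% higher and 5.75% lower). The log2 difference, sgMef2c minus sgSik3, was above 0 for 38 of 41 members and for 5614 of all genes tested. Its median was 0.13 over the members and 0.00 over all genes. It was above 0 for all 18 synthetases and all 9 serine and one-carbon genes.

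Values in the following sentences are reads over DESeq2 size factors estimated for the 6 libraries of RN2c together. The edgeR fit itself used TMM factors. Mthfd1 showed the largest of the 5 differences, with 2505 and 2444 in the sgSik3 libraries and 3206 and 3004 in the sgMef2c libraries (0.32 ± 0.04, adjusted p = 0.0032). Mthfd1l read 1996 and 2032 against 2448 and 2247 (0.22 ± 0.05, adjusted p = 0.025). Psph read 648.5 and 612.5 against 738.0 and 732.8 (0.22 ± 0.06, adjusted p = 0.047). These are a cytosolic and a mitochondrial folate enzyme and the last enzyme of serine synthesis, and none of their groups overlapped. Kars, the lysyl-tRNA synthetase gene, read 3528 and 3410 against 4101 and 3893 (0.20 ± 0.04, adjusted p = 0.018). Hars, for histidine, read 2148 and 2105 against 2456 and 2385 (0.18 ± 0.05, adjusted p = 0.037). Both sgMef2c libraries exceeded both sgSik3 libraries in these 2 genes. All 5 calls were lost without either sgSik3 library, when 0 members passed. Fewer members were called higher without sgMef2c library 1, and more without sgMef2c library 2.

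**Figure D4:**
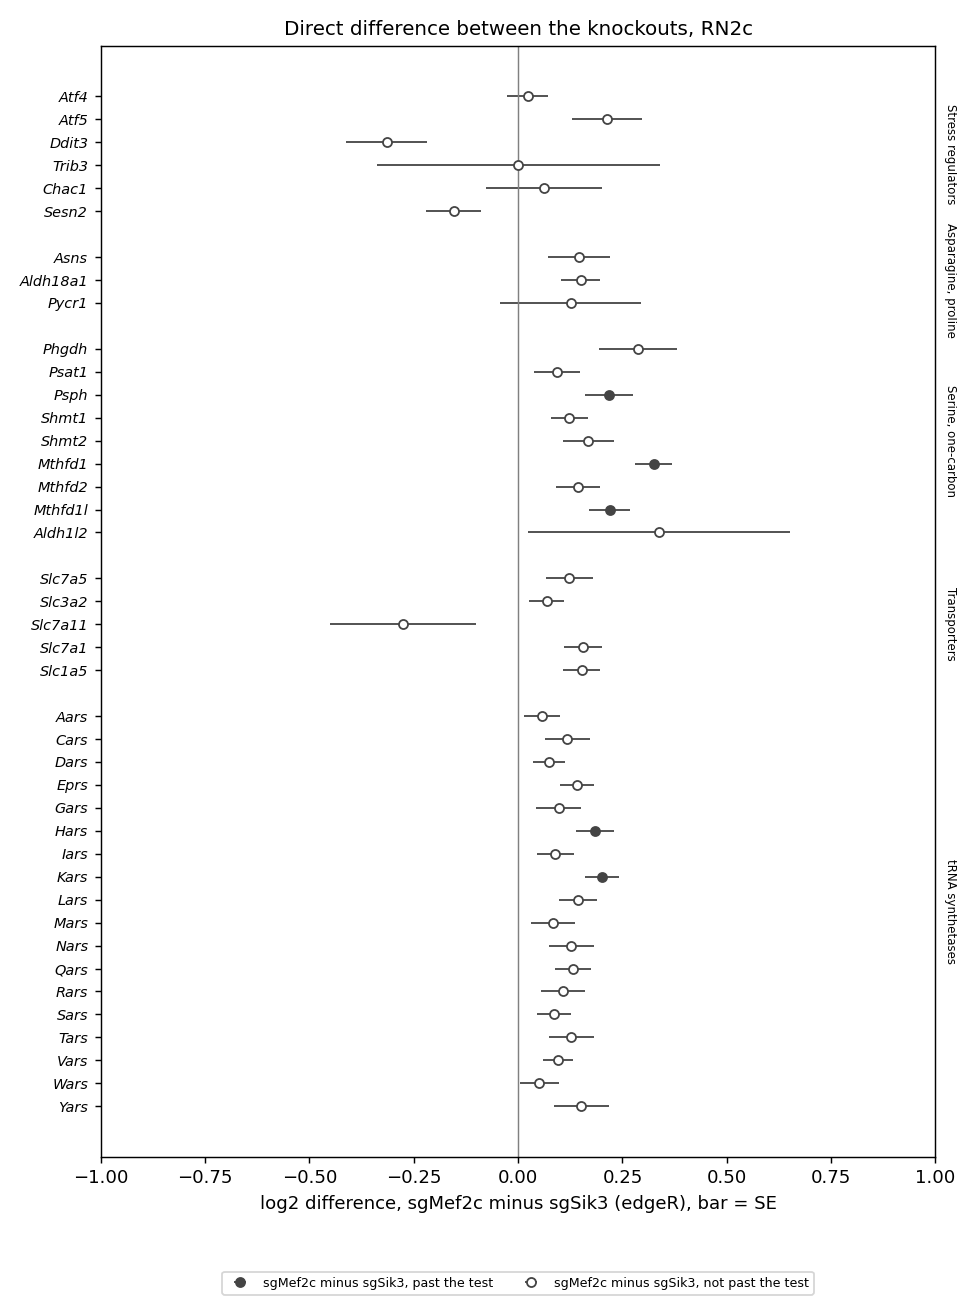
Log2 difference between the knockouts, sgMef2c minus sgSik3, for each of the 41 genes, grouped by role, with filled points past the test. Bars are standard errors derived from the F statistic of the edgeR test. Nearly all points lie right of 0, and Ddit3, Sesn2 and Slc7a11 are the 3 that lie left of it.

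The genes with the largest knockout changes did not pass the direct test. Phgdh read 2167 and 2229 in the sgSik3 libraries and 2995 and 2366 in the sgMef2c libraries, a difference of 0.29 ± 0.09 (adjusted p = 0.087). Library 1 of sgMef2c stood far above the other 3 libraries. Asns was at 0.15 ± 0.07 (adjusted p = 0.25), Pycr1 at 0.13 ± 0.17 (adjusted p = 0.69) and Aldh1l2 at 0.34 ± 0.31 (adjusted p = 0.54). For Ddit3, with 252.6 and 236.5 against 200.6 and 193.4, the difference was -0.32 ± 0.10 (adjusted p = 0.072). Atf4 was at 0.02 ± 0.05 (adjusted p = 0.81), Chac1 at 0.06 ± 0.14 (adjusted p = 0.82) and Trib3 at 0.00 ± 0.34 (adjusted p = 1.00). Of 58 pathway genes tested 3 were higher with sgMef2c, Aimp2 (0.22), Iars2 (0.20) and Eif2b5 (0.17), against 3.7% of all genes. Lower was 1, the amino acid transporter gene Slc38a2 (-0.21), against 5.75% of all genes. The Aimp2 call was lost without any 1 of the 4 libraries (adjusted p of 0.092 to 0.29), and those of Iars2, Eif2b5 and Slc38a2 without 3 of the 4 (adjusted p of 0.061 to 0.21).

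Treatment with the kinase inhibitor for 2 hours was not followed by a called change in any member in RN2. The limma test called 0 of 41, against 0.317% of 10732 genes tested in either direction (0.0373% higher and 0.28% lower), and edgeR and DESeq2 called 0 as well. At an unadjusted p under 0.05 there were 2 members. The fold changes ran from -0.10 to 0.38 with a median of 0.00, and 21 of 41 were above 0. For the 18 synthetases the 95% intervals all lay between -0.21 and 0.14. The change of Gars in either knockout, the largest fall of the family, lies outside that span, as does the family median with sgSik3 (-0.33). The family median with sgMef2c (-0.18) lies within it, so changes of that size were not excluded for every synthetase. The knockouts were read on day 2 after infection, in other libraries, so these intervals bear only on 2 hours of inhibitor. Longer treatment was not measured.

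The regulators varied more between the RN2 libraries than with treatment. Atf4 read 8203 and 9060 with DMSO and 8312 and 8513 with the inhibitor. Ddit3 read 249.8 and 288.0 against 245.9 and 253.1, and Chac1 read 158.5 and 254.0 against 173.0 and 212.0. The groups overlapped in all 3 genes. Trib3 read 215.1 and 426.0 with DMSO and 315.9 and 409.4 with the inhibitor, where the first DMSO library was the low one (0.25 ± 0.25, adjusted p = 0.90). Without DMSO library 2, Trib3 (0.74, adjusted p = 0.00024) and Slc7a11 (0.38, adjusted p = 0.0018) passed, and without DMSO library 1 they stood at -0.24 and -0.26. Their adjusted p reached 1.00 over the other alternatives.

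Among the enzymes Asns read 3256 and 3369 with DMSO and 3249 and 3437 with the inhibitor (0.01 ± 0.05, adjusted p = 0.97). Phgdh was at 0.03 and Psat1 at -0.01. Aldh1l2 read 117.5 and 145.0 against 155.5 and 185.6, higher in both treated libraries (0.38 ± 0.15), which did not pass (adjusted p = 0.63). Eprs, the glutamyl-prolyl synthetase gene, had the lowest adjusted p of the members, 0.51, at -0.10 ± 0.03, with 7237 and 7220 against 6849 and 6654. Its groups did not overlap, but the step was small, and it was called lower only with the replicate number as a block.

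In MOLM-13 likewise the limma test called 0 of 40 members, where the share of all 11361 genes called was 0%, and edgeR and DESeq2 called 0 members. With the replicate number as a block 1 member, SLC3A2, was called lower, beside 150 genes lower and 140 higher over all genes tested. At an unadjusted p under 0.05 there were 0 members and 144 genes. Fold changes ran from -0.14 to 0.13 with a median of 0.01. The 95% intervals of the 17 synthetases measured lay between -0.41 and 0.38, wider than in RN2. ATF4 read 8119 and 9804 with DMSO and 8471 and 9347 with the inhibitor, and DDIT3 read 193.9 and 231.0 against 200.4 and 231.2. TRIB3 read 1026 and 1330 against 1042 and 1298, and ASNS 1360 and 1379 against 1314 and 1415. The groups overlapped in all 4 genes.

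The libraries numbered 2 in MOLM-13 were above those numbered 1 in both groups for 26 of 40 members, and below in both for 9. CHAC1 showed this most, with 59.8 and 215.6 under DMSO and 82.3 and 189.2 with the inhibitor, and its 95% interval ran from -1.31 to 1.58. PHGDH read 2021 and 2590 against 1928 and 2622, and SLC1A5 read 6145 and 7988 against 5834 and 7631. SLC7A11 went the other way, with 1076 and 722.8 under DMSO and 1134 and 760.4 with the inhibitor. In these genes the gap between the numbers was larger than any between treatments.

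**Figure D5:**
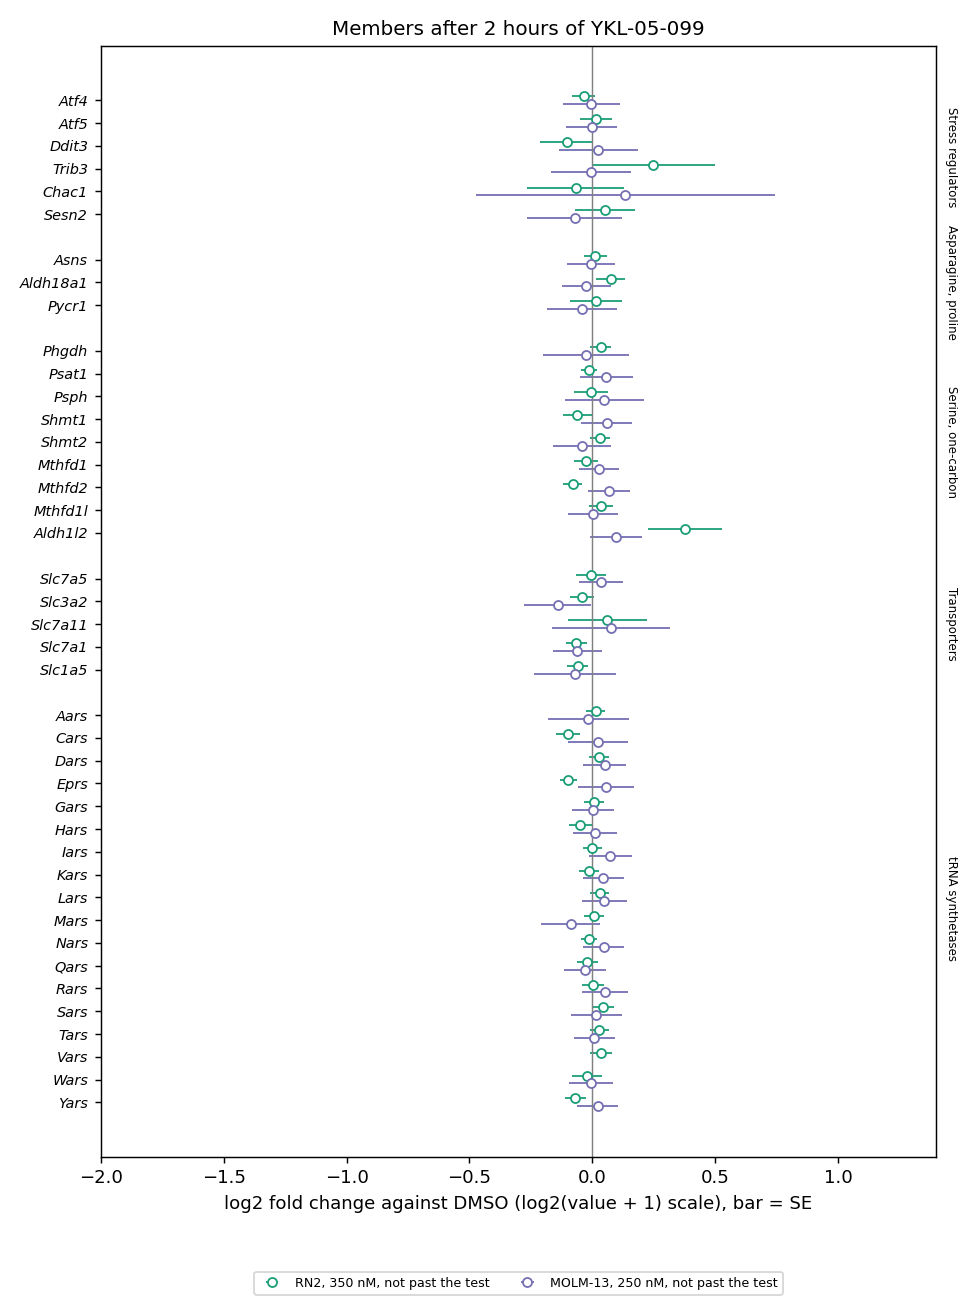
Log2 fold change against DMSO with its standard error after 2 hours of YKL-05-099 in RN2 (350 nM, green) and MOLM-13 (250 nM, purple), on the same scale and gene order as the plot for the knockouts. All points are open because none passed the test, and the widest bars belong to Chac1 and Trib3.

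Related genes gave few signs of change with the inhibitor, and the limma test called no pathway gene in either line. With the replicate number added to that fit as a block, 2 of 59 pathway genes passed in RN2 and 3 of 60 in MOLM-13. Over all genes the blocked fit called 303 lower and 196 higher of 10732 in RN2. In MOLM-13 it called 150 lower and 140 higher of 11361. DESeq2 called 1 pathway gene in MOLM-13, where it called 4 lower and 3 higher over all genes. Jdp2, a member of the same factor family that rose in both knockouts, had the lowest adjusted p of the pathway genes in RN2, 0.068, with 590.8 and 607.0 under DMSO and 769.8 and 763.1 with the inhibitor (0.36 ± 0.07). It passed without DMSO library 1 (adjusted p = 0.025) or 2 (0.0058), and its adjusted p ranged from 3.4e-06 to 0.42 over the alternatives. In MOLM-13 JDP2 was at 0.32 ± 0.20. DDIT4, an ATF4-responsive inhibitor of mTORC1 signalling, read 353.3 and 514.1 under DMSO and 864.4 and 880.8 with the inhibitor in MOLM-13 (1.03 ± 0.18). Both treated libraries exceeded both controls, the limma adjusted p was 1.00, and over the alternatives it ranged from 3.0e-42 to 1.00, with 0.00095 for DESeq2. In RN2 Ddit4 was at 0.12 ± 0.10. Doses and species differ, so the lines are set side by side without a comparison.

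Members with and without the ATF4-type core in the searched window are set side by side as counts, and their difference was not tested. With sgSik3, 7 of the 10 holders fell, 1 rose and 2 did not pass, at a median of -0.43, and among the 20 promoters without it 15 fell, 1 rose and 4 did not pass, at a median of -0.37. With sgMef2c, 6 of 10 holders fell, at a median of -0.31, and 14 of 20 others fell, at a median of -0.22. Phgdh, Mthfd2 and Shmt2, which fell strongly, had no match in the window, while Pycr1, Asns and Gars, which hold one, fell in both knockouts as well. Chac1, which has a match at 193 bases before the start, did not pass in any comparison.

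Some members share sequence with neighbours or copies, and the library kit does not mark strand. In the GENCODE annotation of GRCm38, Ddit3 and Mars overlap by 68 bases on opposite strands, Hars and Hars2 by 198 bases, and Aldh1l2 overlaps D10Wsu102e by 1056 bases on the other strand. Aars shares 1326 bases with Exosc6 on the same strand, and Slc7a5 lies within Gm20388 for 26545 bases. Phgdh and Kars have processed pseudogene copies. Reads of such pairs cannot be told apart where they overlap, so the levels of these members are uncertain to that extent.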

How the data were processed

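The 4 tables that the authors deposited hold a normalized signal, gene counts over DESeq2 size factors. HISAT2, featureCounts, DESeq2 and the builds hg19 and mm10 are named in the submitters' processing notes, without versions in the sources used here. Dividing by the value of 1 read gave whole reads for 100% of values, with a largest deviation of 6.1e-10 reads. RN2 DMSO library 2 held whole numbers as deposited, with no further table to check it against. Tables were normalized separately, so tests stayed within a table, except that the knockouts were compared on recovered reads. Genes with a mean of at least 10 were tested with two-sided limma 3.58.1 fits with a mean-variance trend, in R 4.3.3 and on log2(value + 1), a scale that understates changes of low genes, and the direct comparison used edgeR 4.0.16 (quasi-likelihood, TMM). Standard errors of the direct comparison were derived as the absolute log2 difference over the square root of the F statistic. They are less reliable for differences near 0. P-values were adjusted by Benjamini-Hochberg over all genes tested, at 0.05. DESeq2 1.42.0, edgeR, other scalings, pseudocounts, filters, a replicate block and leaving out each library were alternatives. Scripts were tested on simulated data. The members and lists were chosen with earlier results of these data known. Values in every library are given for Atf4, Ddit3, Trib3, Chac1 and Asns, for the 10 members past a test with the largest changes and for members passing the direct test, and pathway genes were taken from those with the lowest p per list and direction; others were named after their values were seen. Chi-square over degrees of freedom between the libraries of a group ranged from 1.74 to 15.1, so each counted once.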

Additional observations from a re-analysis of the deposited data

Results flagged for a closer look

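The direct test between the knockouts gave a difference for 9 genes, as log2 sgMef2c minus sgSik3. It called 5 of 41 members higher (12.2%) and none lower, and 3 of 58 pathway genes higher (5.17%) and 1 lower (1.72%). Of all genes tested it called 3.7% higher and 5.75% lower, which is 9.44% in either direction. As a share of the members and pathway genes tested, the 9 calls do not exceed that 9.44%. These calls were lost when either sgSik3 library was left out. Among the members the difference was 0.32 for Mthfd1, 0.22 for Mthfd1l, 0.22 for Psph, 0.20 for Kars and 0.18 for Hars. Among the pathway genes it was 0.22 for Aimp2, 0.20 for Iars2, 0.17 for Eif2b5 and -0.21 for Slc38a2.

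In 6 genes both treated libraries lay on one side of both controls in RN2 and on the other side in MOLM-13. These were out of 41 members and 59 pathway genes tested in RN2, and 40 and 60 in MOLM-13. The share over all genes was not counted. With 2 libraries a group such an order often arises without an effect, and these differences were not tested. The log2 fold changes in RN2 and MOLM-13 were -0.080 and 0.068 for Mthfd2, -0.013 and 0.044 for Kars, and -0.012 and 0.047 for Nars. They were -0.046 and 0.046 for Eif2ak1, 0.12 and -0.68 for the glycine transporter gene Slc6a9, and -0.50 and 0.16 for Mthfd2l. None of these passed the test in either line, and the human SLC6A9 values were low, at 6.69 to 13.6.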

How the results depend on the processing

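With 2 libraries a group, modest changes could be missed, and the cause of the shifts below was not tested. The median of the members kept its sign in both knockouts and in the direct test when any 1 library was left out (-0.38 to -0.30, -0.26 to -0.18 and 0.07 to 0.17).

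For sgSik3, members called higher went from 2 to 1 without the mean-variance trend, with quantile normalization and with DESeq2, and were 1 to 2 when 1 library was left out. DESeq2 called 1725 of all genes lower, against 2615. For sgMef2c without the trend, 8 members were lower and 0 higher, and over all genes 741 were lower and 887 higher, against 1659 and 1783. DESeq2 called 1051 lower. Leaving out 1 library gave 13 to 26 members lower, 1 to 2 higher, and 880 to 1504 genes lower and 938 to 1636 higher.

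For RN2, all genes called lower (30) and higher (4) became 3 and 0 without the filter, 0 and 0 without the trend, and 15 and 1 with quantile normalization. TMM scaling and edgeR gave 2 higher each. Leaving out 1 library gave 0 to 2 members higher, 25 to 187 genes lower and 1 to 131 higher. Lars2 (0.00 with all libraries) was -0.21 without DMSO library 2 and 0.22 without DMSO library 1, both past the test. For MOLM-13, DESeq2 called 4 genes lower and 3 higher, and leaving out 1 library 8 to 11 lower and 4 to 9 higher.

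In the direct test, members higher (5) were 3 with DESeq2, 15 without the filter and 8 with limma, and 0 to 10 when 1 library was left out, with 0 to 1 lower. Over all genes DESeq2 called 389 lower and 212 higher, the absent filter 694 higher, and leaving out 1 library 36 to 519 lower and 9 to 378 higher.

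The labels give the same replicate numbers across groups, with no shared origin stated. For sgMef2c the titles do not say whether the numbers are guides or replicates, so the block there pairs libraries by number alone. Within-group differences of the same number correlated at 0.53 in MOLM-13, 0.22 in RN2 and 0.05 for sgMef2c. The sgSik3 guides are named e1 and e3 and share no numbers with the controls, so no block was fitted there. With the number as a replicate block, sgMef2c gave 29 members lower and 2 higher. In RN2 1 member was lower (Eprs, -0.10), with 303 genes lower and 196 higher. In MOLM-13 1 member was lower (SLC3A2, -0.14), with 150 genes lower and 140 higher. Sign changes of members that passed neither with all libraries nor under the setting were counted as unchanged: 4 for sgSik3, 1 for sgMef2c, 42 for RN2, 63 for MOLM-13 and 6 for the direct test, each a member under 1 setting.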
